A study of Mus musculus with 15 samples.

Results

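The 35 endothelial identity genes are a list of junction, receptor, transcription factor and capillary genes by which the cells lining blood vessels are recognised, and they were found by their symbols among the 15258 genes of the deposited tables. All 35 were present, and all 35 passed the filter on low values that kept 11018 genes for testing, with Erg and Plvap the members nearest to its limit. RNA came from the left ventricle of male mice of the C57BL/6NRj strain and was read with BRB-seq, a 3′-end RNA-seq assay in which each RNA sample carries its own barcode. TAC NRG mice had a surgically tightened aortic arch (TAC, transverse aortic constriction), which loads the left ventricle with pressure, and a minipump with NRG1, the growth factor neuregulin-1. TAC saline mice had the same constriction and a minipump with saline, and sham saline mice had sham surgery and saline. Each group held 5 libraries, and the sources used here give no age of the mice, no dose or duration of NRG1 and no sham group with NRG1, so NRG1 was compared with saline under constriction alone. Whether the 5 libraries of a group are 5 different animals is not stated either, so the p-values speak for the spread among the libraries, which may be partly technical.

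Endothelial cells form the inner lining of vessels and, in the heart, a dense capillary bed that supplies fatty acids, oxygen and signals to the cardiomyocytes around it. Their identity rests on ETS family factors such as Erg and Fli1 and on SoxF factors (Sox7, Sox17 and Sox18), which switch on genes of cell junctions and of the receptors for vascular endothelial growth factor (VEGF) and angiopoietin. NRG1 is itself made by cardiac endothelium and acts on ERBB receptors of neighbouring cells. In whole ventricle, fewer endothelial cells and less RNA of a gene per endothelial cell cannot be told apart.

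Library depth was 2.02 to 5.62 M reads, and levels are given as CPM, read counts multiplied by the authors' factor for each library. On this scaling a library summed to 0.878 to 1.01 M, so the values are not scaled to total reads. Cdh5, the vascular cadherin, was at 109 CPM or above in every library and Meox2, a homeobox factor of endothelium, at 11.1 CPM or above, and 12 cardiomyocyte genes together took 74946 to 92035 CPM. TAC NRG libraries 4 and 5 stood apart: they were the shallowest (2.02 and 2.13 M reads), they lay at 32.4 and 35.9 on the second principal component (14.5% of variance) against -17.5 to 3.30 in the other 13 libraries, and their haemoglobin genes took 0.366% and 0.350% of reads. The counts of calls and many of the single values in which these libraries took part are therefore also given without them. The counts of groups that do not overlap, the levels relative to Cdh5 and some single values are given with all libraries only.

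Between TAC NRG and TAC saline, 5 of the 35 members fell and none rose (limma, Benjamini-Hochberg adjusted p under 0.05), where 1.3% of all genes tested passed and 0.626% passed as lower and 0.672% as higher. The members that fell were Cdh5, Icam2, Pcdh12, Meox2 and Bcl6b. Their log2 fold changes lay between -0.43 and -1.19, and the median over the 35 members was -0.22, beside -0.01 over all genes tested. At an unadjusted p under 0.05, 16 members were lower and 2 were higher, Sox17 and Rgcc, where 15.3% of all genes tested passed (8.1% lower and 7.25% higher). The log2 fold change was below 0 in 30 of 35 members and above 0 in 5, where it was below 0 for 50.8% of all genes tested and above 0 for 49.2%. Without TAC NRG libraries 4 and 5, none of the 35 members passed, with 39 genes called in all. In that fit 16 members had an unadjusted p under 0.05 (14 of them lower), 26 were below 0, and the median was -0.24. The shares of all genes tested at that p and below 0 were not taken for that fit, so these counts stand without a background.

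Between TAC NRG and sham saline, 7 of 35 members passed in limma, where 16.1% of all genes tested did. Sox17 rose, against a share of 8.74% of all genes tested that passed as higher. Aqp1, Ptprb, Pcdh12, Bcl6b, Meox2 and Sox7 fell, against a share of 7.39% that passed as lower, and the median over the members was -0.14, beside -0.01 over all genes tested. At an unadjusted p under 0.05, 14 members differed (11 lower and 3 higher), where 28.9% of all genes tested did (14.6% lower and 14.2% higher). The log2 fold change was below 0 in 27 members and above 0 in 8, where it was below 0 for 52% of all genes tested and above 0 for 48%. Without TAC NRG libraries 4 and 5, 5 of 35 members passed, where 1361 of the 11018 genes tested did. Aqp1, Ptprb and Sox17 kept their calls, and Sox18 (0.37 on the log2 scale) and Tcf15 (-0.46) joined them. The median over the members was -0.08 in that fit.

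Between TAC saline and sham saline, constriction alone, 5 of 35 members passed in limma, where 10.7% of all genes tested did. Icam2, Sox18 and Gpihbp1 rose, where 6.47% of all genes tested passed as higher. Aqp1 and Rgcc fell, where 4.24% passed as lower. The median over the members was 0.14, beside -0.01 over all genes tested, with 26 of 35 log2 fold changes above 0 and 9 below it, where 49.1% of all genes tested were above 0 and 50.9% below. At an unadjusted p under 0.05, 8 members were higher and 2 lower, where 24.2% of all genes tested passed (12.7% higher and 11.5% lower). Both TAC comparisons against sham saline share the sham saline libraries, and TAC saline is on the lower side of one comparison and the upper side of another, so the 3 sets of values are not independent.

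**Figure D1:**
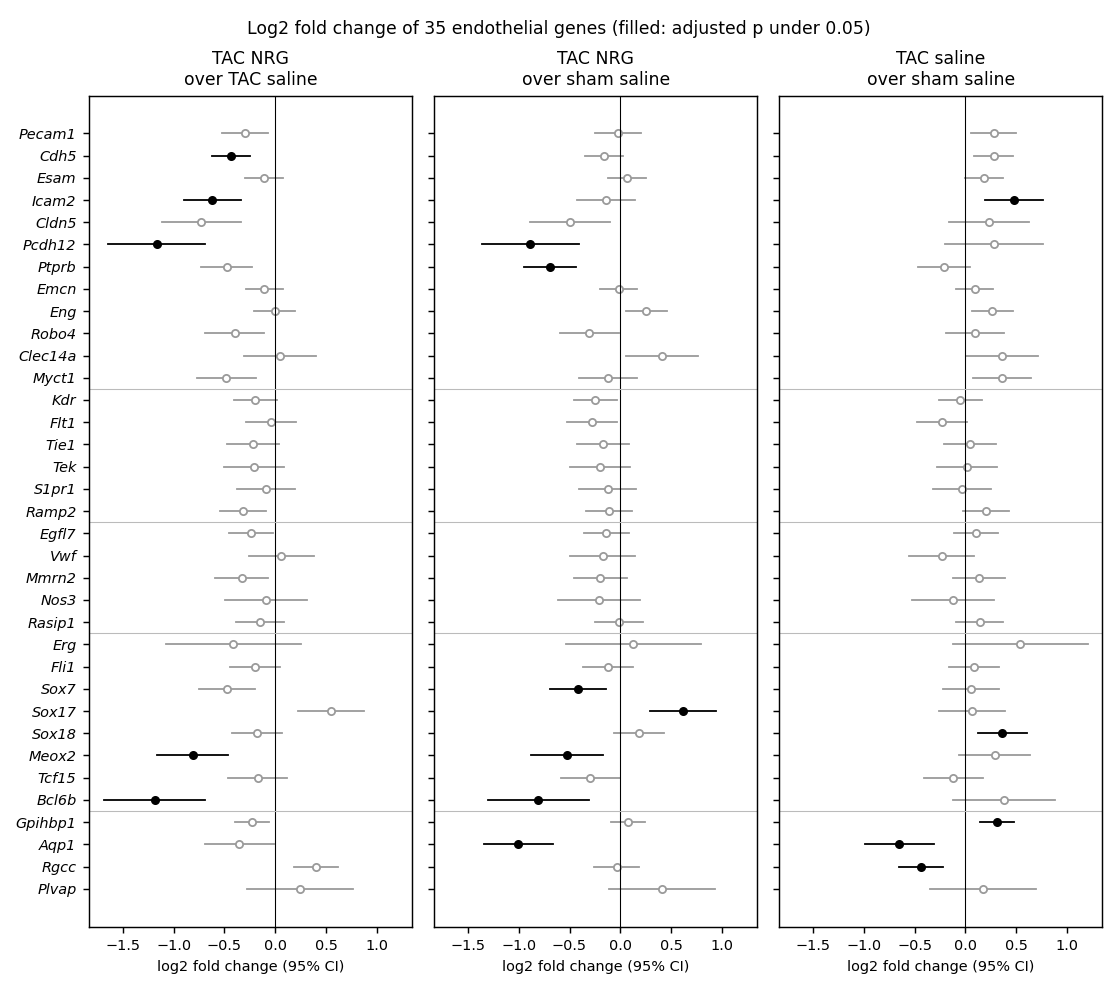
Log2 fold change (x axis) with its 95% confidence interval for each of the 35 endothelial identity genes (rows, ordered by role), in TAC NRG over TAC saline, TAC NRG over sham saline and TAC saline over sham saline; filled points passed the adjusted p threshold of 0.05 in limma. In the first panel 30 of 35 points lie below 0, in the third 26 of 35 lie above 0.

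**Figure D2:**
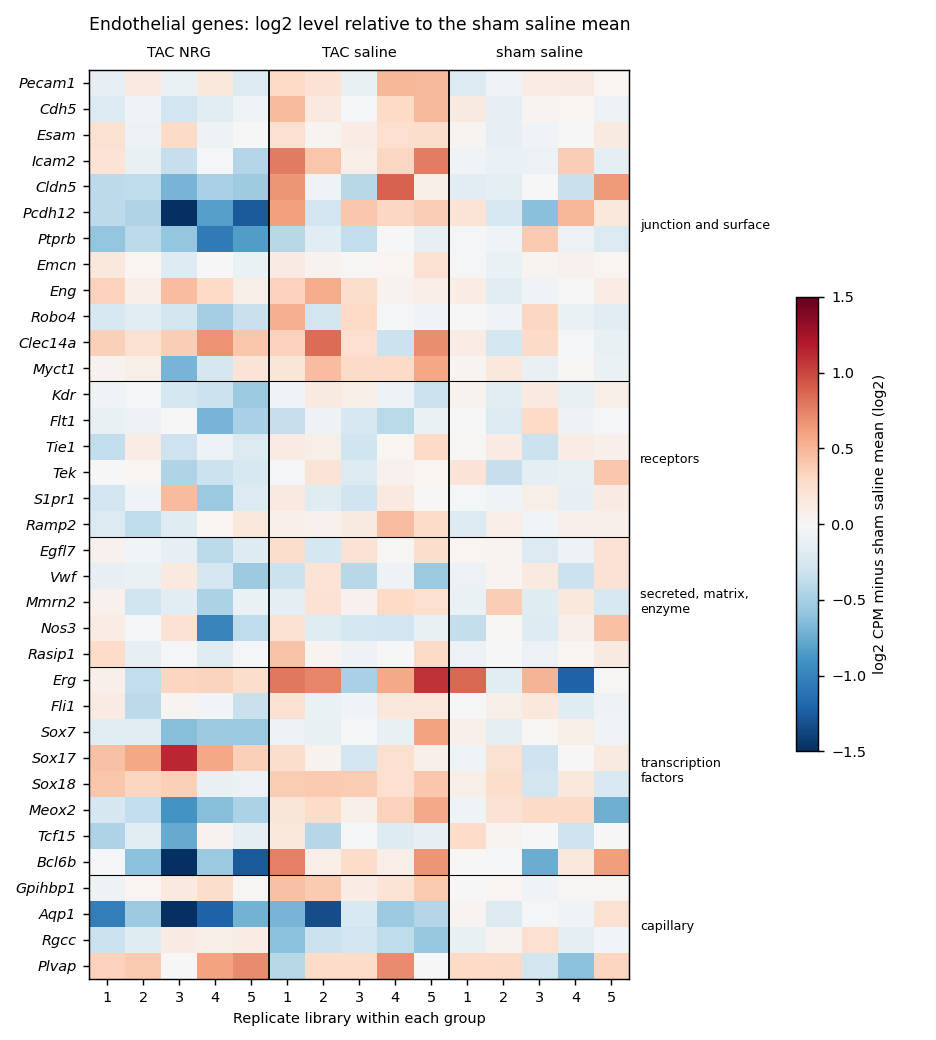
Log2 CPM of each member (rows) in each of the 15 libraries (columns), minus the mean log2 CPM of that member in the sham saline libraries; red is above that mean, blue below it, and colours end at 1.5 on either side. The median over the members lies between -0.20 and -0.07 in the TAC NRG libraries and between -0.01 and 0.24 in the TAC saline libraries.

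Summed over the 35 members, the level was 1551 to 1689 CPM in the TAC NRG libraries, 1808 to 2024 CPM in the TAC saline libraries and 1756 to 1893 CPM in the sham saline libraries. On the authors' scaling, every TAC NRG library lay below every TAC saline and every sham saline library, while TAC saline and sham saline overlapped. On it, all genes of a library summed to 0.992 to 1.01 M in sham saline. The range was 0.878 to 0.993 M in TAC saline and 0.889 to 0.979 M in TAC NRG. The separation does not hold on total reads. TAC NRG library 3 had 1629 CPM of 0.889 M, a larger share than the 1756 CPM of 1.01 M in sham saline library 2. With scaling by total reads the median log2 fold change of the members in TAC NRG against sham saline was -0.05, beside -0.14. The 2 lowest sums, 1551 and 1552 CPM, belonged to TAC NRG libraries 4 and 5, and the other 3 TAC NRG libraries reached from 1629 CPM upwards, also below the lowest sum of the other groups. The sum gives most weight to the members with many reads, such as Cdh5, Eng, Egfl7, Kdr, Aqp1 and Gpihbp1.

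Among the 12 junction and surface genes, Cdh5, Icam2 and Pcdh12 fell in TAC NRG against TAC saline. Cdh5, whose product joins endothelial cells at adherens junctions, was at 115, 127, 109, 118 and 127 CPM in TAC NRG libraries 1 to 5, at 184, 147, 131, 163 and 186 CPM in TAC saline and at 146, 121, 137, 135 and 125 CPM in sham saline. All TAC NRG libraries lay below all TAC saline libraries and inside or under the range of sham saline. Against TAC saline its log2 fold change was -0.43 ± 0.09 (SE; limma adjusted p = 0.0157), and against sham saline -0.16 ± 0.09 (adjusted p = 0.266). In TAC saline over sham saline it was 0.28 ± 0.09, with a limma adjusted p of 0.0533. Without TAC saline library 1 or 5, Cdh5 no longer passed between the TAC groups (highest limma adjusted p of the fits without 1 library = 0.0579). Of all 30 alternatives, 22 passed (highest limma adjusted p = 0.108), and the value of Cdh5 across them ran from -0.51 to -0.38.

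Pcdh12, a protocadherin of endothelial contacts, was at 8.43, 8.09, 3.95, 6.27 and 4.64 CPM in TAC NRG, at 16.9, 9.12, 14.7, 13.7 and 14.3 CPM in TAC saline and at 12.8, 9.36, 7.18, 15.7 and 12.4 CPM in sham saline. TAC NRG lay below TAC saline throughout and overlapped sham saline in its 2 highest libraries. It fell by 1.17 on the log2 scale against TAC saline (SE 0.23, limma adjusted p = 0.0101) and by 0.88 against sham saline (SE 0.23, adjusted p = 0.0106). Its reads numbered 10 to 59 per library, so counting error is a larger part of its spread than for Cdh5 with 254 to 772 reads. Without TAC NRG libraries 4 and 5 the value against TAC saline was -1.06 (limma adjusted p = 0.0885) and against sham saline -0.78 (adjusted p = 0.0514).

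Icam2, an adhesion molecule for leukocytes on resting endothelium, was at 47.7, 38.5, 32.7, 40.6 and 30.7 CPM in TAC NRG, at 71.0, 55.6, 44.5, 51.6 and 70.6 CPM in TAC saline and at 40.1, 38.6, 39.1, 53.9 and 37.8 CPM in sham saline. TAC saline was the high group, overlapping sham saline through sham library 4 and TAC NRG through TAC NRG library 1. Its log2 fold change was -0.62 ± 0.14 in TAC NRG over TAC saline (limma adjusted p = 0.0230) and 0.47 ± 0.14 in TAC saline over sham saline (adjusted p = 0.0268). In TAC NRG over sham saline it was -0.14 ± 0.14 (limma adjusted p = 0.537). The call against TAC saline was lost without TAC NRG library 5 and without TAC saline library 1 or 5 (highest limma adjusted p = 0.0757), and that of TAC saline over sham saline in 6 of the 10 fits that leave out 1 library (highest adjusted p = 0.102).

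Ptprb, the endothelial phosphatase that acts on the Tek receptor and on the vascular cadherin, was at 49.9, 57.5, 50.3, 36.0 and 42.2 CPM in TAC NRG, at 56.5, 67.6, 58.4, 75.04 and 69.1 CPM in TAC saline and at 74.4, 71.9, 98.7, 70.6 and 64.5 CPM in sham saline. TAC NRG lay wholly below sham saline, with the lowest values in libraries 4 and 5. Ptprb fell by 0.69 against sham saline (SE 0.12, limma adjusted p = 0.000346) and passed in all 21 alternatives of that comparison, with a value of -0.52 without TAC NRG libraries 4 and 5. Against TAC saline the log2 fold change was -0.48 ± 0.12 and the limma adjusted p 0.0504, beside -0.31 and 0.390 without those libraries.

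The other 8 junction and surface genes passed in no comparison. Cldn5, the tight junction claudin of endothelium, was at 24.7 ± 2.08 CPM in TAC NRG, 43.0 ± 15.9 CPM in TAC saline and 35.8 ± 10.6 CPM in sham saline (SD, n = 5), with a log2 fold change of -0.73 ± 0.19 (SE) between the TAC groups (limma adjusted p = 0.0572). Pecam1, the adhesion molecule CD31, Robo4, a guidance receptor that stabilises vessels, and Myct1 had log2 fold changes of -0.30, -0.40 and -0.48 between the TAC groups (limma adjusted p = 0.175, 0.156 and 0.0819). Esam and Emcn, an adhesion molecule and a sialomucin, were at -0.11 each, with 95% confidence intervals that reached no lower than -0.30. Eng, the co-receptor endoglin, and Clec14a, a lectin-like surface protein, were at -0.01 and 0.05 between the TAC groups, while against sham saline they were at 0.26 and 0.41 in TAC NRG and at 0.26 and 0.36 in TAC saline (lowest limma adjusted p = 0.0736). Between the TAC groups without TAC NRG libraries 4 and 5, Eng was at 0.04, Clec14a at -0.04 and Esam at -0.04. Exons of Eng overlap those of Fpgs on the opposite strand, and nothing states whether the counting used strand.

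The 6 receptor genes had no call in any comparison (limma). At an unadjusted p under 0.05, 1 was lower in TAC NRG against TAC saline, where 15.3% of all genes tested passed (8.1% lower). Against sham saline, 2 were lower in TAC NRG, where 28.9% passed (14.6% lower), and 0 differed in TAC saline, where 24.2% passed. Kdr, the main VEGF receptor of endothelium, was at 93.6 ± 13.4 CPM in TAC NRG, 107 ± 12.9 CPM in TAC saline and 111 ± 10.04 CPM in sham saline (SD, n = 5), a log2 fold change between the TAC groups of -0.20 with a 95% confidence interval of -0.41 to 0.02. Flt1, the VEGF receptor that also acts as a decoy, was at 72.5 ± 14.3 CPM in TAC NRG, 73.6 ± 7.24 CPM in TAC saline and 86.8 ± 11.7 CPM in sham saline. Tek, the angiopoietin receptor, and its partner Tie1 had log2 fold changes of -0.21 and -0.22 between the TAC groups, with intervals of -0.50 to 0.09 and -0.48 to 0.04. S1pr1, the receptor for sphingosine-1-phosphate, was at -0.09 (interval -0.37 to 0.19), with 67.9 CPM in TAC NRG library 3 and 33.2 to 47.2 CPM in the other 4. Ramp2, the partner of the adrenomedullin receptor, was at -0.32 (interval -0.55 to -0.09; limma adjusted p = 0.152), and its exons overlap those of Vps25 on the same strand. All 6 values were below 0 in TAC NRG against TAC saline and against sham saline, with medians of -0.20 and -0.19, and the median in TAC saline over sham saline was -0.01. With TAC NRG libraries 4 and 5 left out, the log2 fold change of Flt1 against TAC saline was 0.17 and that of S1pr1 0.08, so 4 of 6 stayed below 0, with a median of -0.11. Against sham saline, without the same libraries, Flt1 was at -0.06 and S1pr1 at 0.05, and 5 of 6 were below 0, with a median of -0.13.

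The 5 genes for secreted, matrix and effector proteins likewise had no call in limma. Between the TAC groups 2 of them, Mmrn2 and Egfl7, had an unadjusted p under 0.05, where 15.3% of all genes tested did. In the other comparisons 0 of the 5 did, where 28.9% of all genes did in TAC NRG and 24.2% in TAC saline against sham saline. Vwf, the clotting factor carrier stored in endothelial granules, was at 17.6 ± 3.02 CPM in TAC NRG, 17.0 ± 3.69 CPM in TAC saline and 19.8 ± 2.83 CPM in sham saline. Mmrn2, a matrix glycoprotein around vessels, had the lowest log2 fold change of the 5 between the TAC groups, -0.33 ± 0.12 (SE, limma adjusted p = 0.197). Nos3, the endothelial nitric oxide synthase, was at 7.66 CPM in TAC NRG library 4 and 11.7 to 17.7 CPM in the other 4, against 12.5 to 17.8 CPM in TAC saline and 11.9 to 20.8 CPM in sham saline. Egfl7, a secreted vascular factor, and Rasip1, an adaptor of small GTPases needed for vessel lumens, were at -0.24 and -0.15 between the TAC groups. The log2 fold change of Nos3 between the TAC groups was 0.22 without TAC NRG libraries 4 and 5, beside -0.09 with all libraries; with both left out, Egfl7 was at -0.14 and Rasip1 at -0.09. Exons of Nos3, Egfl7 and Rasip1 overlap those of other annotated genes, so reads of those genes could be among their counts.

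Of the 8 transcription factors, Bcl6b and Meox2 fell between the TAC groups, and against sham saline Bcl6b, Meox2 and Sox7 fell while Sox17 rose. Bcl6b, a repressor of transcription enriched in endothelium, was at 19.2, 12.8, 6.50, 13.2 and 8.18 CPM in TAC NRG, at 33.1, 20.9, 23.7, 20.9 and 30.9 CPM in TAC saline and at 19.5, 19.1, 11.6, 21.8 and 30.1 CPM in sham saline. All TAC NRG libraries lay below all TAC saline libraries, and sham saline overlapped both. Bcl6b fell by 1.19 against TAC saline (SE 0.24, limma adjusted p = 0.0123, or 0.0557 with a robust estimate of the spread) and by 0.81 against sham saline (SE 0.24, adjusted p = 0.0237). The call against sham saline was lost in 6 of 21 alternatives, among them a robust spread and leaving out sham saline library 4 or 5 or TAC NRG library 3 or 5 (highest limma adjusted p = 0.0797).

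Meox2, which with Tcf15 drives genes of fatty acid uptake in heart endothelium, was at 17.3, 15.9, 11.1, 13.2 and 14.81 CPM in TAC NRG, at 23.3, 24.9, 21.6, 26.1 and 30.4 CPM in TAC saline and at 19.7, 23.9, 25.0, 25.2 and 12.4 CPM in sham saline. TAC NRG lay below all TAC saline libraries and below 4 of the 5 sham saline libraries. Meox2 fell by 0.81 against TAC saline (SE 0.17, limma adjusted p = 0.0157) and by 0.52 against sham saline (SE 0.17, adjusted p = 0.0364). The call against sham saline was lost in 11 of 21 alternatives, without each of sham saline libraries 1 to 4 and TAC NRG libraries 3 and 4 among them (highest limma adjusted p = 0.103). Tcf15 itself was at 30.2 ± 6.34 CPM in TAC NRG, 33.8 ± 4.99 CPM in TAC saline and 36.7 ± 5.22 CPM in sham saline (SD, n = 5).

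The SoxF factors, which act in part redundantly in vessel formation, did not move together. Sox17, the one most tied to arteries, was at 17.6, 19.2, 28.1, 19.3 and 16.6 CPM in TAC NRG, at 15.5, 13.4, 10.6, 15.2 and 13.6 CPM in TAC saline and at 12.3, 15.2, 10.4, 13.0 and 14.2 CPM in sham saline. Every TAC NRG library was above every library of the other groups, with library 3 the highest. Sox17 rose by 0.62 on the log2 scale against sham saline (SE 0.16, 1.53-fold, limma adjusted p = 0.00829) and passed in all 21 alternatives. Against TAC saline it was 0.55 ± 0.16 (limma adjusted p = 0.0780), and an annotated gene, Gm37587, overlaps its exons on the opposite strand.

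Sox7 was at 31.1, 30.9, 22.3, 23.9 and 23.6 CPM in TAC NRG, at 32.8, 32.1, 34.5, 32.3 and 53.0 CPM in TAC saline and at 36.6, 31.8, 35.2, 37.1 and 33.7 CPM in sham saline. All TAC NRG libraries were below all libraries of both other groups. Sox7 fell by 0.42 against sham saline (SE 0.13, limma adjusted p = 0.0345), a call lost in 10 of 21 alternatives, among them leaving out any of 7 single libraries (sham saline 1, 3, 4 or 5 and TAC NRG 3, 4 or 5; highest adjusted p = 0.0880). Against TAC saline it was -0.47 ± 0.13 (limma adjusted p = 0.0767). Without TAC NRG libraries 4 and 5, Sox7 was at -0.33 against sham saline (limma adjusted p = 0.170) and -0.38 against TAC saline (adjusted p = 0.376).

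Sox18 was at 71.2, 66.5, 68.4, 49.5 and 50.2 CPM in TAC NRG, at 69.3, 70.1, 69.1, 63.4 and 70.6 CPM in TAC saline and at 56.6, 64.0, 43.9, 59.3 and 45.3 CPM in sham saline. It was high in 3 TAC NRG libraries and at the level of sham saline in libraries 4 and 5. In TAC saline over sham saline it rose by 0.36 (SE 0.12, limma adjusted p = 0.0464), a call kept in 2 of the 10 fits without 1 library (highest adjusted p = 0.140). Erg and Fli1, the ETS factors, had no call, and for Erg, at 6 to 40 reads per library, the 95% confidence interval between the TAC groups ran from -1.08 to 0.25.

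**Figure D3:**
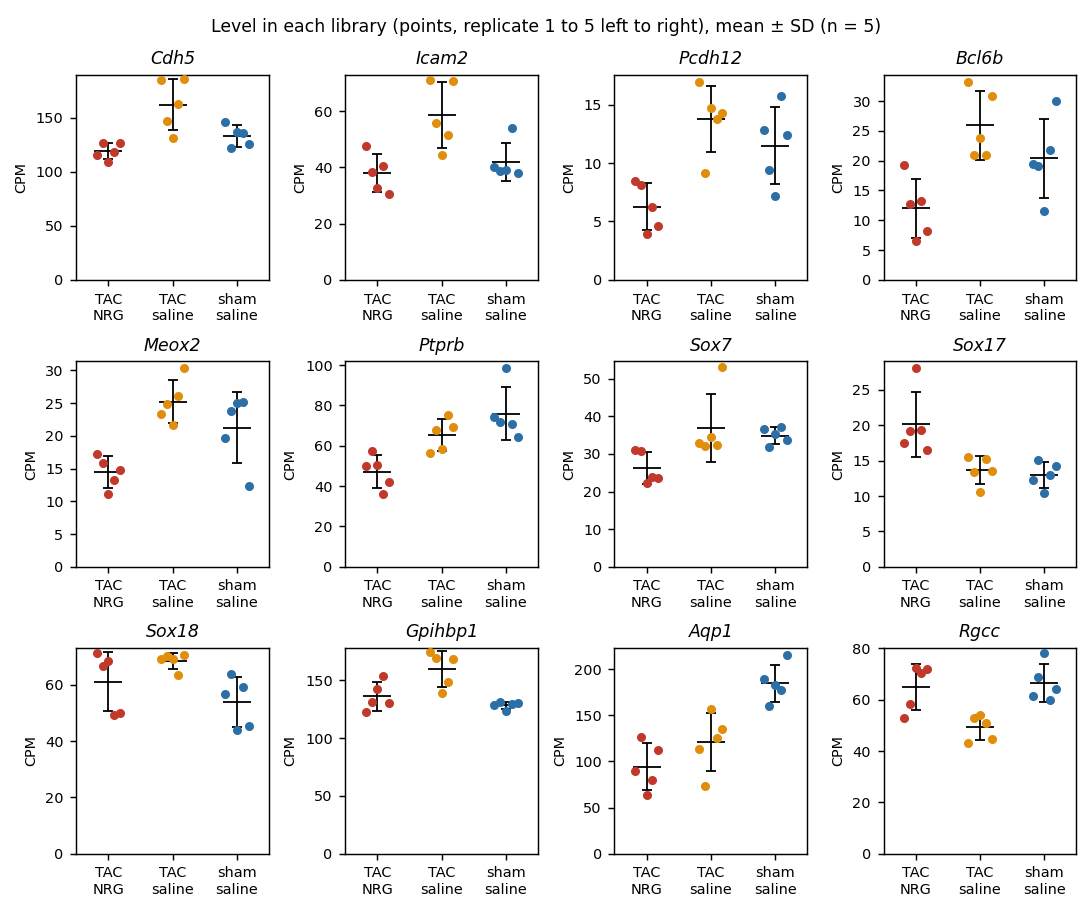
CPM (y axis, from 0) of the 12 members called in at least 1 comparison, in TAC NRG, TAC saline and sham saline; points are the 5 libraries of a group in order of replicate number, bars the mean ± SD. Cdh5, Pcdh12, Bcl6b and Meox2 show TAC NRG wholly below TAC saline, Sox17 shows it above, and Aqp1 shows both TAC groups below sham saline.

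The 4 capillary genes differed from one another. Aqp1, a water channel of capillary endothelium and also of red cells, was at 89.7, 127, 64.1, 79.6 and 112 CPM in TAC NRG, at 114, 73.1, 157, 126 and 136 CPM in TAC saline and at 189, 160.2, 183, 178 and 215 CPM in sham saline. Both TAC groups lay wholly below sham saline and overlapped each other. Aqp1 fell by 1.00 in TAC NRG against sham saline (SE 0.16, limma adjusted p = 0.00014, all 21 alternatives past the threshold) and by 0.65 in TAC saline against sham saline (SE 0.16, adjusted p = 0.0116, or 0.0657 with a robust spread). Between the TAC groups its log2 fold change was -0.35 ± 0.16 (limma adjusted p = 0.304).

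Rgcc, a cell cycle regulator and marker of capillaries, was at 52.9, 58.2, 72.2, 70.4 and 71.8 CPM in TAC NRG, at 43.2, 52.9, 54.2, 51.1 and 44.6 CPM in TAC saline and at 61.5, 69.0, 78.3, 60.0 and 64.2 CPM in sham saline. TAC saline lay wholly below sham saline, while TAC NRG overlapped both. Rgcc fell by 0.44 in TAC saline against sham saline (SE 0.11, limma adjusted p = 0.0088), in all 20 alternatives. In TAC NRG over TAC saline it was 0.40 ± 0.11 (limma adjusted p = 0.0601), and over sham saline -0.04 ± 0.11 (adjusted p = 0.866). Without TAC NRG libraries 4 and 5, Rgcc was at 0.31 between the TAC groups (limma adjusted p = 0.360).

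Gpihbp1, the capillary anchor of lipoprotein lipase, was at 122, 131, 142, 154 and 131 CPM in TAC NRG, at 174, 169, 139, 148 and 169 CPM in TAC saline and at 128, 131, 124, 129.8 and 130.3 CPM in sham saline. TAC saline lay above all sham saline libraries, and TAC NRG overlapped both. Gpihbp1 rose by 0.31 in TAC saline against sham saline (SE 0.08, limma adjusted p = 0.0139, or 0.0527 without TAC saline library 1). Its log2 fold change was -0.23 ± 0.08 between the TAC groups (limma adjusted p = 0.155). Plvap, which forms the diaphragms of fenestrae and marks venous and endocardial cells, was low in all groups, at 6.00 ± 1.09 CPM in TAC NRG, 5.16 ± 1.46 CPM in TAC saline and 4.59 ± 1.23 CPM in sham saline (SD, n = 5).

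Groups that did not overlap were counted over the members as well. Between TAC NRG and TAC saline, 5 members lay wholly lower (Cdh5, Pcdh12, Meox2, Bcl6b and Sox7) and 1 wholly higher (Sox17), where 3.06% of all genes tested did so (1.25% lower and 1.81% higher). Between TAC NRG and sham saline, 4 lay wholly lower (Aqp1, Ptprb, Sox7 and Cldn5) and Sox17 wholly higher, where 11.7% of all genes tested did so (5.45% lower and 6.23% higher). Between TAC saline and sham saline, 2 lay wholly lower (Aqp1 and Rgcc) and 2 wholly higher (Gpihbp1 and Myct1), where 8.4% of all genes tested did so (3.68% lower and 4.72% higher).

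Setting each member against Cdh5 of the same library shows which members moved by other amounts than this junction gene, as a description with no test. Relative to Cdh5, 26 of the other 34 members were higher and 8 lower in TAC NRG against TAC saline. In TAC NRG against sham saline 18 were higher and 16 lower, and in TAC saline against sham saline 10 were higher and 24 lower. Cdh5 was itself called lower between the TAC groups, at -0.43 where the median over the members was -0.22. Most members therefore come out higher relative to it there. The quantity is the log2 level of the member minus that of Cdh5, and only its change between groups is read, since 3′ reads of different genes are not on 1 scale. For Pcdh12 it was -4.31 ± 0.46 in TAC NRG, -3.57 ± 0.32 in TAC saline and -3.58 ± 0.43 in sham saline (SD, n = 5), a difference between the TAC groups of -0.73. Bcl6b stood at -3.41 ± 0.61 in TAC NRG, -2.66 ± 0.22 in TAC saline and -2.76 ± 0.54 in sham saline. Meox2 stood at -3.06 ± 0.21 in TAC NRG, -2.68 ± 0.17 in TAC saline and -2.69 ± 0.42 in sham saline. These 3 members were thus lower in TAC NRG by more than Cdh5, while TAC saline minus sham saline was 0.01 for Pcdh12, 0.10 for Bcl6b and 0.01 for Meox2. For Sox17 the difference between the TAC groups was 0.98 and for Rgcc 0.83, the 2 furthest above 0. Aqp1 and Ptprb were lower relative to Cdh5 in both TAC groups than in sham saline: in TAC NRG over sham saline it was -0.85 for Aqp1 and -0.53 for Ptprb, and in TAC saline over sham saline -0.93 and -0.49, where Rgcc was at -0.71, Flt1 at -0.51 and Vwf at -0.51.

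Promoter sequences are shown for 3 of the 12 members called in any comparison (Meox2, Aqp1 and Rgcc) and, beside them, for Tie1, a receptor with no call. They come from the RefSeq promoter table on build GRCm38.p6, which holds 16 of the 35 members, and run from 250 bases before to 50 bases after the annotated start, 5′ to 3′ on the strand of the gene. Capitals mark GGAA or its reverse complement TTCC, the core letters bound by ETS factors. Meox2 lies at chr12:37108290-37108589 on the plus strand, Aqp1 at chr6:55336049-55336348 on the plus strand, Rgcc at chr14:79301586-79301885 on the minus strand and Tie1 at chr4:118489800-118490099 on the minus strand.
Meox2: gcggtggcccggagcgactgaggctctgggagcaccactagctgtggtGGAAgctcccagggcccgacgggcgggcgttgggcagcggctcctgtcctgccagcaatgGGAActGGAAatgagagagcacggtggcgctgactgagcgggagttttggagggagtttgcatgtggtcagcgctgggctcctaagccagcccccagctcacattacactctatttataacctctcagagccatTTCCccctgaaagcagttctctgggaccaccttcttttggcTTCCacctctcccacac
Aqp1: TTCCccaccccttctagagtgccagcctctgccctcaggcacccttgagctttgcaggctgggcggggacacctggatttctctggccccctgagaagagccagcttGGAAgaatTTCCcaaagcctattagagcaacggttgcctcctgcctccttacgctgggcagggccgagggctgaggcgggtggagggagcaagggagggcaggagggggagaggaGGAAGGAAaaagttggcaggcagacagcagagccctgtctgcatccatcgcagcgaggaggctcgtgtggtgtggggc
Rgcc: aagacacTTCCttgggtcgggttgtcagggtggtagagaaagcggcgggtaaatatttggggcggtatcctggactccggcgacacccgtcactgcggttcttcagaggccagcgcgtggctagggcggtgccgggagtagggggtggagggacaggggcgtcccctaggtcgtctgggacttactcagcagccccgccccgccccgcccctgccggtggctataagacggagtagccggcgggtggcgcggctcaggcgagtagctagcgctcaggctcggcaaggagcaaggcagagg
Tie1: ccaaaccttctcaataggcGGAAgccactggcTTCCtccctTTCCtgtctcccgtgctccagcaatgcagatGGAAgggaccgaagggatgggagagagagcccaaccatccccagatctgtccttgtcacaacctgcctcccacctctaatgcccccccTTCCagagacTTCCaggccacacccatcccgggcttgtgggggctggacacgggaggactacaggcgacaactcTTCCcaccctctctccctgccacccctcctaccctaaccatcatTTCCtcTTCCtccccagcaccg
The core occurs 5 times in the Meox2 window, 5 times in that of Aqp1, once in that of Rgcc and 9 times in that of Tie1. It was found in 95% of the 20 windows of members (median 4 matches) and in 96% of all 32851 windows of the table (median 3), so its presence does not set these genes apart. The letters ACAAT or ATTGT, the core of SOX sites, were in 5 of the 20 windows (25%) and in 31% of all windows, and in none of the 4 printed. A match is a string of letters and not a bound site.

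The calls between the TAC groups depended on which TAC NRG libraries were kept. Leaving out 1 library at a time left 3 to 8 members past the threshold, all lower except 1 higher call without TAC NRG library 1 or 2. The count was 3 without TAC saline library 1 or 5 and 8 without TAC saline library 3 or TAC NRG library 2. With TAC NRG libraries 4 and 5 both left out, the log2 fold changes were -1.12 for Bcl6b, -1.06 for Pcdh12, -0.79 for Meox2, -0.56 for Icam2 and -0.46 for Cdh5, and their limma adjusted p-values 0.0800, 0.0885, 0.0911, 0.136 and 0.0558. For each of the 5 members this moved the value by less than its standard error in the fit of all libraries, while the test had 3 TAC NRG libraries instead of 5. The pairs 3 and 4 and 3 and 5 also left none of the members past the threshold, and the pair 2 and 4 left 2, while the pair 1 and 2 gave 9 and the other 5 pairs 4 to 7.

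**Figure D4:**
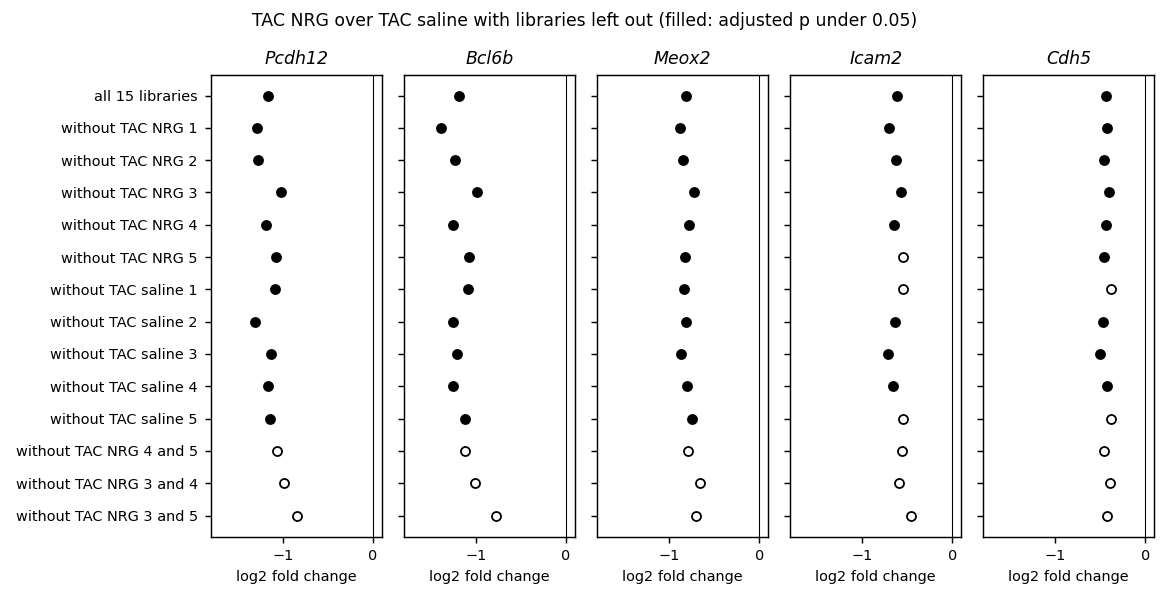
Log2 fold change (x axis) of the 5 members called in TAC NRG over TAC saline, with all 15 libraries and with the libraries named on the y axis left out; filled points passed the adjusted p threshold of 0.05. Every point lies below 0, and the 3 lowest rows, each without a pair of TAC NRG libraries, have open points for all 5 members.

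Genes that work with the members were read from the same fit. Of 36 listed signalling partners 34 were tested, and between TAC NRG and TAC saline 3 fell and none rose (limma). Over all genes tested, 0.626% passed as lower and 0.672% as higher in that comparison. Apln, the ligand apelin made by sprouting endothelium, was at 4.87 ± 1.23 CPM in TAC NRG, 14.4 ± 3.49 CPM in TAC saline and 15.7 ± 1.10 CPM in sham saline (SD, n = 5), and fell by 1.58 between the TAC groups (limma adjusted p = 3.05e-05). Nrp2, a co-receptor of the VEGF receptors, was at 14.6 ± 2.77 CPM in TAC NRG, 31.5 ± 3.82 CPM in TAC saline and 24.4 ± 3.08 CPM in sham saline, a log2 fold change between the TAC groups of -1.12 (limma adjusted p = 2.45e-05). Ackr3, a scavenging receptor of the chemokine Cxcl12, was at 60.8 ± 7.74 CPM in TAC NRG, 109.4 ± 22.2 CPM in TAC saline and 101 ± 15.2 CPM in sham saline, a log2 fold change of -0.83 (limma adjusted p = 0.000313). Without TAC NRG libraries 4 and 5 the calls of these 3 genes held, with Apln at -1.40, Nrp2 at -0.94 and Ackr3 at -0.80, and 1 more gene, Hey1, a Notch target, was called higher. Of 24 listed junction partners 22 were tested, and Cav1, the coat protein of caveolae, fell between the TAC groups, at 227 ± 18.1 CPM in TAC NRG, 311 ± 34.4 CPM in TAC saline and 252 ± 19.9 CPM in sham saline (log2 fold change -0.45, limma adjusted p = 0.00426). In TAC saline over sham saline, 4 of 34 signalling partners and 2 of 22 junction partners passed, where 10.7% of all genes tested did. The signalling partners were Angpt1, the agonist of Tek, at -1.25, Ptgis at 0.93, Nostrin at 0.77 and Calcrl, the receptor that pairs with Ramp2, at 0.42. The junction partners were Pdlim1 at 0.70 and Cav1 at 0.30. In TAC NRG over sham saline, 9 of 34 signalling partners passed, 3 higher and 6 lower, with Apln at -1.73, Ptgis at 1.17, Nrp2 at -0.75 and Ackr3 at -0.73 the furthest from 0. Of the 22 junction partners 3 passed, Pdlim1 at 0.59, Jup at 0.31 and Afdn at -0.38. The share of all genes tested that passed there was 16.1% (8.74% higher and 7.39% lower). In this comparison 7 signalling partners and 2 junction partners passed without TAC NRG libraries 4 and 5, with Afdn at -0.27 (limma adjusted p = 0.108). In that fit 1361 of the 11018 genes tested passed.

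Markers of other cells moved too, and their part in the values above was not tested. Between TAC NRG and TAC saline, 5 of 6 red cell genes were called higher, where 0.672% of all genes tested were. The largest log2 fold changes among these 5 were those of Alas2 (1.06), Hbb-bt (1.05), Hba-a1 (1.03) and Hbb-bs (0.97). The sum of the 6 was 1718 to 3503 CPM in TAC NRG, 987 to 1484 CPM in TAC saline and 908 to 2237 CPM in sham saline. Without TAC NRG libraries 4 and 5, none of the 6 passed in TAC NRG against TAC saline or against sham saline. Between TAC NRG and TAC saline 1 of 12 cardiomyocyte genes rose (Tnnt2, 0.35, with a limma adjusted p of 0.188 without TAC NRG libraries 4 and 5). None of 10 fibroblast, 11 pericyte and smooth muscle, 10 macrophage and 6 proliferation genes passed. An unadjusted p under 0.05 was met in 0, 2, 1 and 4 of them, where 15.3% of all genes tested met it. The median log2 fold change of the proliferation genes between the TAC groups was -1.16, and their sum was 17.2 to 36.9 CPM in TAC NRG, 26.7 to 96.9 CPM in TAC saline and 6.33 to 14.3 CPM in sham saline. Against sham saline, 7 of 10 fibroblast genes passed in TAC NRG and 7 in TAC saline, with sums of 2521 to 3970 CPM in TAC NRG, 2265 to 3492 CPM in TAC saline and 1981 to 2209 CPM in sham saline. In TAC NRG against sham saline, where 16.1% of all genes tested passed, the calls also held 7 of 12 cardiomyocyte and 2 of 10 macrophage genes. They held 5 of 11 pericyte and smooth muscle, 6 of 6 red cell and 5 of 6 proliferation genes. In TAC saline against sham saline, where 10.7% passed, they held 6 of 12 cardiomyocyte, 6 of 10 macrophage and 2 of 11 pericyte and smooth muscle genes. There 0 of 6 red cell and 6 of 6 proliferation genes passed. Without TAC NRG libraries 4 and 5, the 2 macrophage genes called in TAC NRG against sham saline, Cd68 (0.86) and C1qa (0.38), no longer passed (limma adjusted p = 0.0722 and 0.0845), and pericyte and smooth muscle calls numbered 6.

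The called genes of these lists furthest from 0 in TAC NRG against sham saline were the matrix genes Postn (3.18 on the log2 scale), Col1a1 (1.99), Col3a1 (1.95) and Col1a2 (1.62), the contractile and mural genes Cnn1 (1.77), Tagln (1.19), Cspg4 (0.81) and Abcc9 (-0.55), and the cell cycle genes Ccnb1 (2.61), Mki67 (1.56), Top2a (1.55) and Cdk1 (1.38). Cardiomyocyte genes there were Atp2a2 (-0.52), Ryr2 (-0.51), Actc1 (0.45) and Myh6 (-0.35), and the red cell genes called there included Hba-a1 (0.97), Alas2 (0.96) and Hbb-bt (0.93). In TAC saline against sham saline they were Postn (2.77), Col3a1 (1.74), Col1a1 (1.70) and Col1a2 (1.40), Cspg4 (0.65) and Abcc9 (-0.52), and Ccnb1 (3.59), Kif11 (2.99), Top2a (2.85) and Cdk1 (2.54). Cardiomyocyte genes there were Atp2a2 (-0.46), Tnni3 (-0.44), Pln (-0.42) and Actc1 (0.39), and macrophage genes Cd68 (0.84), Adgre1 (0.67), Tyrobp (0.65) and C1qb (0.55). Summed macrophage genes were at 242 to 428 CPM in TAC NRG, 298 to 468 CPM in TAC saline and 236 to 329.5 CPM in sham saline. Summed pericyte and smooth muscle genes were at 668 to 825 CPM in TAC NRG, 688 to 869.5 CPM in TAC saline and 714 to 831 CPM in sham saline. None of the genes in these lists was at 0 in all libraries.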

How the data were processed

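Left ventricle RNA was measured by BRB-seq in 3 groups of 5 libraries. The deposited values are on a log2 scale, normalized by the authors, against build GRCm39 per the submitters' processing notes; no source used here names the aligner, the counting tool or the use of strand. Nearly every deposited value, put on a linear scale, matched a whole number of reads plus 0.5, multiplied by 1 factor per library (tolerance 0.05 reads). CPM is that linear value divided by a constant that is the same for every library. Genes with 2.95 reads per M reads in at least 5 libraries and 15 reads in all were tested (11018 of 15258; 4240 left out). The files held log2 values where counts had been assumed in the design, so limma 3.58.1 in R 4.3.3 was fitted with a mean-variance trend to all 15 libraries, and p-values were adjusted by Benjamini-Hochberg over that whole set, with 0.05 as threshold. Standard errors had a median of 0.159 (log2). Scripts used Python 3.11.15, pandas 2.3.3, numpy 2.4.6 and matplotlib 3.10.9, and the fit was tested on simulated data. Every member is described, with members called in any comparison given by their value in every library, and from every other list up to 4 called genes per comparison are named by size of log2 fold change; 1 called gene of these lists is not reported here. The members and lists were chosen with earlier results of these data known. Alternatives were other scalings, pseudocounts, filters, spread estimates, a replicate block and libraries left out.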

Additional observations from a re-analysis of the deposited data

Results flagged for a closer look

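Each of the 35 members was looked at in each group for 1 library far from the other 4, by the gap to its nearest neighbour over the range of the group (Dixon's 95% critical value of 0.71 for 5 samples). This was met in 7 of 105 groups, and chance gives about 1 in 20 groups. In TAC NRG, Sox17 was at 28.15 CPM in library 3, against 16.57 to 19.27 CPM in the others. In TAC saline, Sox7 was at 53.03 CPM in library 5 (32.12 to 34.46 CPM in the others) and Sox18 at 63.42 CPM in library 4 (69.09 to 70.58 CPM). In sham saline, Icam2 was at 53.85 CPM in library 4 (37.85 to 40.14 CPM in the others) and Cldn5 at 54.31 CPM in library 5 (27.61 to 34.61 CPM). Sham saline library 3 held both Ptprb at 98.73 CPM (64.48 to 74.38 CPM) and Tie1 at 24.4 CPM (30.8 to 33.1 CPM).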

How the results depend on the processing

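The counts of members called in limma moved mainly with the libraries kept. Leaving out 1 library gave 3 to 8 members in TAC NRG against TAC saline, 4 to 8 in TAC NRG against sham saline and 2 to 6 in TAC saline against sham saline, beside 5, 7 and 5 with all libraries. Leaving out a pair of TAC NRG libraries gave 0 (4 and 5, 3 and 4, or 3 and 5), 2 (2 and 4) and up to 9 (1 and 2) against TAC saline; pairs other than 4 and 5 were chosen after seeing the data, as was the voom fit. In TAC saline against sham saline, scaling by total reads gave 9 members, 7 of them higher, and put the median of the members at 0.25 (0.14 on the authors' scaling) and that of all genes at 0.10. Under the other alternatives the counts stayed within 1.5 times. In TAC NRG against sham saline, total reads put the median of the members at -0.05 (-0.14 on the authors' scaling) and that of all genes at 0.08. Without TAC NRG libraries 4 and 5 the median of the members in that comparison was -0.08. No called member changed sign under any alternative run. Over all genes, 143 were called between the TAC groups, 77 in a fit of those groups alone, 58 to 229 without 1 library and 39 to 379 without a pair, and between TAC saline and sham saline 636 to 1495 without 1 library, beside 1180. The share of calls that were higher was 51.7% between the TAC groups (32.6% with total reads without mitochondrial genes), 54.2% in TAC NRG against sham saline (75.9% with total reads) and 60.4% in TAC saline against sham saline (84.9%). Samples with the same replicate number did not deviate together (correlations -0.25 to 0.08), and the labels state no pairing. With 5 libraries per group this cannot exclude shared handling by number. With a replicate block 5, 6 and 5 members were called, and Meox2 lost its call against sham saline. Planned count-model tests were not run. The files hold log2 values, and the reads recovered from them were used for the voom fit and the other scalings only. Erg and Plvap, with few reads, have the widest intervals.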

Other observations

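Other endothelial genes, 40 of 43 listed having been tested, gave 2 calls between the TAC groups, both lower (limma). Over all genes tested, 0.626% passed as lower there. Cd93, a lectin-like receptor of endothelial contacts, was at 69.2 ± 18.4 CPM in TAC NRG, 116 ± 18.1 CPM in TAC saline and 87.5 ± 10.3 CPM in sham saline (SD, n = 5), a log2 fold change of -0.77 between the TAC groups (limma adjusted p = 0.00575). Cxcl9, a chemokine induced by interferon, was at -0.92 (adjusted p = 0.0428), and without TAC NRG libraries 4 and 5 both had a limma adjusted p of 0.0887. In TAC NRG against sham saline 10 of the 40 passed, where 16.1% of all genes tested did. The 4 furthest from 0 were Slco2a1, a prostaglandin transporter (1.27), Tmem100 (0.83), Klf2, a flow-responsive factor (-0.59), and Cd34, a sialomucin (0.53); 4 rose and 6 fell, and 6 passed without TAC NRG libraries 4 and 5. In TAC saline against sham saline 7 of the 40 passed, 4 higher and 3 lower, where 10.7% of all genes tested did. Cd34 at 0.81, Icam1, a leukocyte adhesion molecule, at 0.58, Tfpi, an inhibitor of clotting, at -0.47 and Ly6a at 0.45 were the furthest from 0.

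Of 4 lymphatic genes tested, none passed between the TAC groups (0 at an unadjusted p under 0.05) or in TAC saline against sham saline (3 unadjusted), and Pdpn (1.18) and Prox1 (-0.71) passed in TAC NRG against sham saline, neither of them without TAC NRG libraries 4 and 5. None of 7 endocardial genes, Vwf and Plvap among them, passed in any comparison (1 had an unadjusted p under 0.05 in each). Their sums were 55.5 to 63.2 CPM in TAC NRG, 47.3 to 74.1 CPM in TAC saline and 55.3 to 68.5 CPM in sham saline. Over all genes tested, an unadjusted p under 0.05 was met by 15.3% between the TAC groups. It was met by 28.9% in TAC NRG and 24.2% in TAC saline against sham saline.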
